A study of Arabidopsis thaliana with 12 samples.

Results

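The chloroplast of Arabidopsis thaliana keeps a small circular genome of its own, and the genes described here are the 82 rows of the deposited expression table whose identifier starts with ATCG, the prefix of that genome, out of 23387 genes in all. They were taken by that prefix alone, with no measured value used. Of the 82 members, 74 reached at least 1 TPM (a scaled share of the library per unit of gene length) in at least 3 of the 12 libraries and were tested. The other 8 had 2 to 18 reads each over all libraries, 46 together, and none of them is given a value below. No ribosomal RNA or transfer RNA row was among the members.

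RNA came from whole seedlings 7 days old that had been raised at 21 °C in short days and then spent 12 hours at 27 °C, so every group carries the warm shift. There were 4 genotypes with 3 libraries each. The genotype h3.3kd (h3.3kd-1 in the genotype label) is a knockdown of the replacement histone H3.3, h2a.z is mutant for the histone variant H2A.Z, h3.3kd;h2a.z combines both, and Col is the wild type. The labels give no allele, and nothing in them says that the 3 libraries of a genotype came from separate cultures, so the p-values measure the spread between these libraries, which may be technical. Histones package nuclear DNA, and the chloroplast genome has none, so its genes carry neither variant.

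Chloroplast genes encode core subunits of the photosynthetic complexes, the large subunit of Rubisco, part of the chloroplast ribosome and the catalytic core of a bacterial-type RNA polymerase. That polymerase needs nuclear-encoded sigma factors to find its promoters, and it transcribes mainly photosynthesis genes. A second, phage-type polymerase, encoded in the nucleus, transcribes housekeeping genes such as the rpoB operon, which holds the polymerase's own subunits. Many other subunits of the complexes come from the nucleus, and levels of chloroplast transcripts depend on processing and decay as well as on transcription. Mature chloroplast mRNAs lack the long poly(A) tails of nuclear mRNAs, and the labels do not state whether poly(A) RNA was selected before library preparation.

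The table gives chloroplast identifiers without gene names. Names were assigned by length, since the TPM of a gene falls in steps set by its length: 60 members matched a single RefSeq chloroplast gene, 10 were settled by the genes beside them, 1 by elimination, and 11 stay unnamed. All 59 neighbouring pairs of the 60 fell in genome order. By class, the members comprise 19 ribosomal proteins, 15 subunits of photosystem II, 9 of the NDH complex, 6 of cytochrome b6f, 6 of ATP synthase, 5 of photosystem I, 4 of RNA polymerase, the large subunit of Rubisco, 6 others and 11 unnamed.

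Libraries held 18955795 to 22911064 recovered reads, of which 6054 to 24183 fell on chloroplast members. The targeted histone genes matched the labels. HTR4 (AT4G40030), a gene for H3.3, lay at 29.6 to 70.1 TPM in h3.3kd and 47.7 to 60.3 TPM in h3.3kd;h2a.z, against 417 to 479 TPM in Col, and HTA11 (AT3G54560), a gene for H2A.Z, lay at 1.59 to 3.19 TPM in h2a.z and 3.71 to 4.62 TPM in h3.3kd;h2a.z, against 32.8 to 64.2 TPM in Col. The second h3.3kd library stands apart: 300 genes had 1 to 5 reads there, against 1085 to 1560 in the other 11 libraries, and 19590 genes were above 0, against 20831 to 22019. It also had the highest chloroplast total, so the counts and medians over members in h3.3kd are given with and without it.

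A pair of sequences, read from the RefSeq chloroplast genome (TAIR10.1, labelled Pltd), is shown, for the member with the largest log2 fold change between h3.3kd and Col and for the most abundant member. For psbA, the gene of the photosystem II reaction-centre protein D1, the stretch from 140 to 81 bases before the first codon (Pltd:1525-1584, minus strand) is printed with bacterial-type promoter boxes in capitals, the first searched as TTGACA and the second as TATANT. For rpl32, the gene of a protein of the large ribosomal subunit, the whole coding sequence (Pltd:113449-113607, plus strand, 159 bases) is printed with runs of at least 5 adenines in capitals.
psbA: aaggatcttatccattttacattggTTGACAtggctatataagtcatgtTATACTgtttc
rpl32: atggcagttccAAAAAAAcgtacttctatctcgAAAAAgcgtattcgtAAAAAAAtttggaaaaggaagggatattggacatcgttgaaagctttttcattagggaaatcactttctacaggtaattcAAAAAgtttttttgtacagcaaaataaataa
The first box lay 115 bases before the psbA start codon, with 18 bases between the boxes. In the 300 bases before the first codon of all 71 named members, TTGACA stood on the coding strand of 7 (9.86%) and on either strand of 10 (14.1%), and of the 7 only psbA had TATANT inside the 30 bases that start with TTGACA. A match is a description of these letters and no evidence of use.

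In every library the most abundant member was rpl32. It reached 924, 1406 and 647 TPM in h3.3kd, 544, 779 and 445 TPM in h2a.z, 616, 807 and 781 TPM in h3.3kd;h2a.z, and 462, 632 and 502 TPM in Col, and it made up 23.7% to 30.3% of the chloroplast total in the 12 libraries. The next in mean level were psbI, psbM, psbK and psbA, which encode subunits of photosystem II, then atpE and atpB, subunits of ATP synthase, then psaJ of photosystem I, rpl14 of the ribosome and cemA, an envelope protein. These 10 members held 66.5% of the summed chloroplast TPM. Level and length ran in opposite directions over the 71 named members (Spearman's rho -0.37, a description, since members share libraries and overlapping transcripts). For rbcL, which encodes the large subunit of Rubisco and is highly expressed in leaves, the mean level was 33.5 TPM.

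The chloroplast total was 3474, 5874 and 2440 TPM in h3.3kd, 2042, 2569 and 1876 TPM in h2a.z, 2246, 3003 and 2675 TPM in h3.3kd;h2a.z, and 1709, 2417 and 1788 TPM in Col. The mean was 3929 ± 1762 TPM in h3.3kd, 2162 ± 362 TPM in h2a.z and 2641 ± 379.5 TPM in h3.3kd;h2a.z, against 1971 ± 388 TPM in Col (SD, n = 3 each). All h3.3kd libraries lay above all Col libraries, the lowest at 2440 TPM against 2417 TPM in the highest Col library, but as a share of reads they overlapped, at 0.0795%, 0.118% and 0.0462% in h3.3kd and 0.0288%, 0.0493% and 0.0337% in Col. The h2a.z and h3.3kd;h2a.z totals overlapped those of Col. In ratios of geometric means, the total was 1.89-fold in h3.3kd, 1.10-fold in h2a.z and 1.35-fold in h3.3kd;h2a.z relative to Col. Without the second h3.3kd library the difference of mean log2 totals was 0.58, against 0.92 with it, and without both that library and the first Col library it was 0.49. In these whole seedlings, fewer cells of a type and less RNA per cell cannot be told apart.

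**Figure D1:**
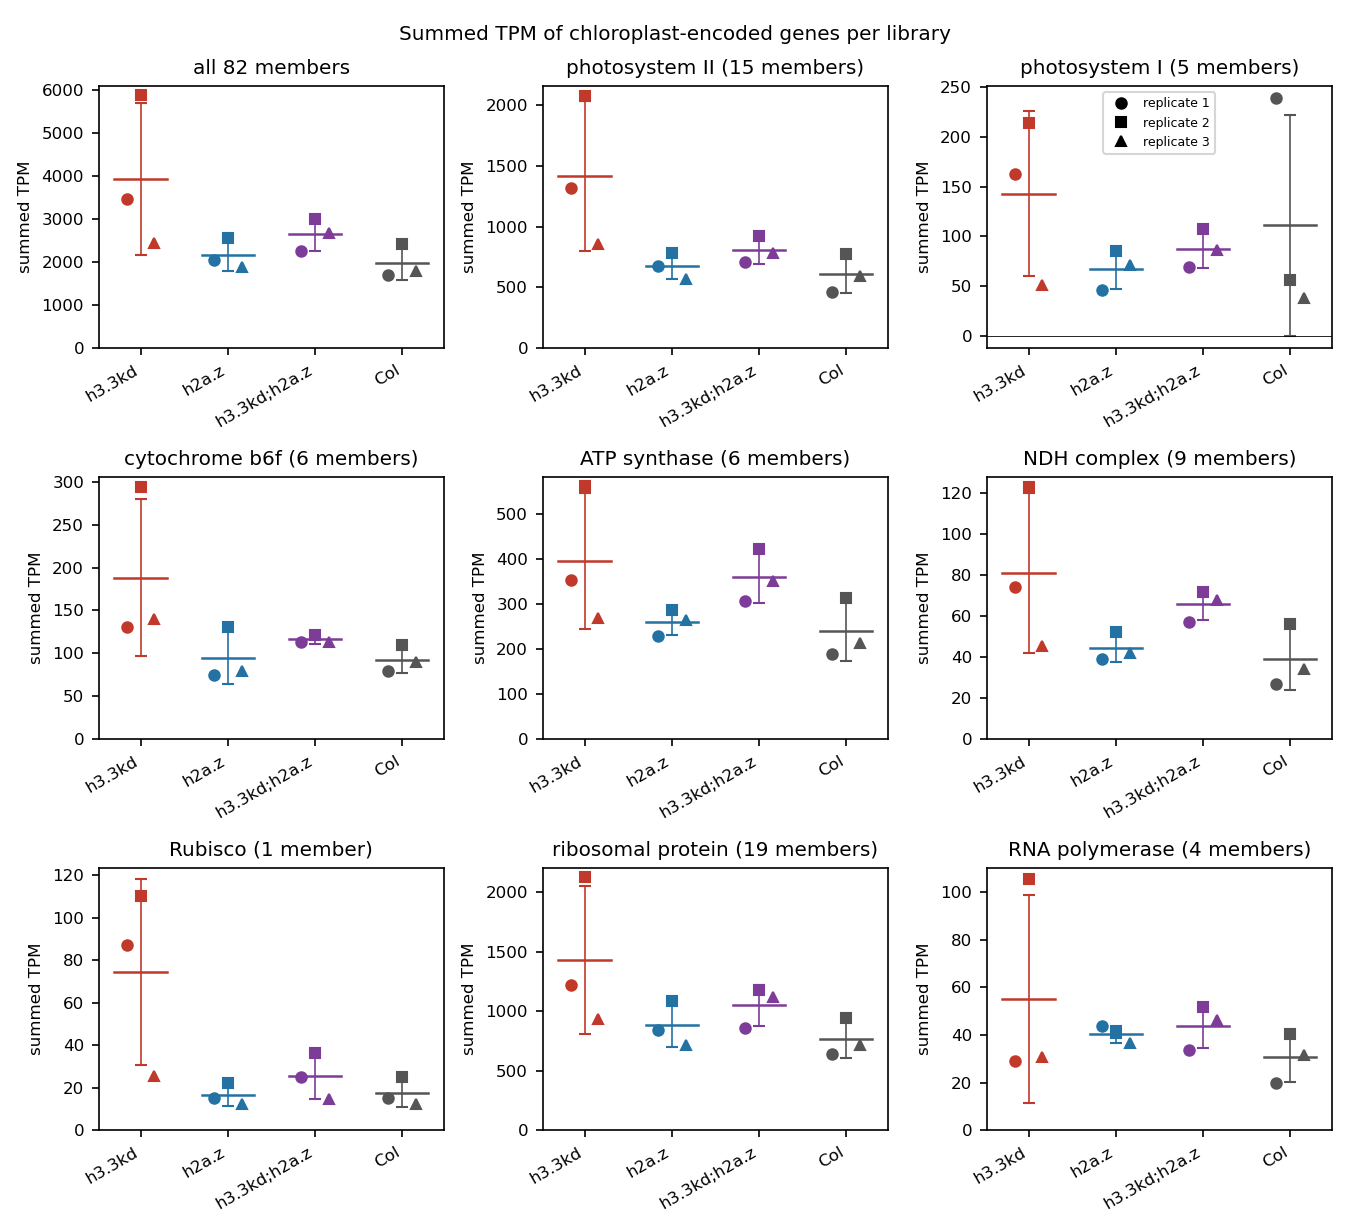
Summed TPM per library (vertical axis from 0) of all members and of 8 classes, by genotype (horizontal axis), with a symbol per library, a line at the mean and an SD bar. The second h3.3kd library, the square, is highest in the total at 5874 TPM, and the first Col library is highest in photosystem I at 239 TPM.

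By class, photosystem II summed to 1322, 2077 and 855 TPM in h3.3kd, against 466, 779 and 597 TPM in Col, with no overlap. The RNA polymerase subunits summed to 28.9, 105 and 30.6 TPM in h3.3kd, against 19.9, 40.3 and 31.7 TPM in Col, so only the second h3.3kd library was above the highest Col library. Cytochrome b6f summed to 131, 294 and 140 TPM in h3.3kd, against 79.1, 109.5 and 89.6 TPM in Col, again with no overlap. ATP synthase (354, 562 and 269 TPM in h3.3kd, against 189, 313 and 214 TPM in Col), the NDH complex (74.2, 123 and 45.5 TPM, against 26.8, 55.9 and 34.1 TPM in Col) and the ribosomal proteins (1216, 2127 and 937 TPM, against 636, 939 and 712 TPM in Col) overlapped. Most of the ribosomal sum was rpl32. Without rpl32 it was 293, 721 and 290 TPM in h3.3kd, against 174, 308 and 210 TPM in Col. Only the second h3.3kd library was then above the highest Col library, as for the polymerase subunits. Photosystem I summed to 163, 214 and 51.4 TPM in h3.3kd, against 239, 55.8 and 37.6 TPM in Col. Most of the first Col value was psaJ, a small subunit, which stood at 221 TPM in the first Col library (277 reads), against 33.8 and 24.7 TPM in the other Col libraries. Photosystem I without psaJ summed to 50.4, 94.6 and 18.7 TPM in h3.3kd, against 18.0, 22.0 and 12.9 TPM in Col, which still overlapped through the third h3.3kd library. No test was run on these sums. As shares of the chloroplast total, photosystem II held 35.04% to 38.0% of it in h3.3kd, against 27.3% to 33.4% in Col, ribosomal proteins 35.01% to 38.4% against 37.2% to 39.9%, and rbcL 1.05% to 2.51% against 0.680% to 1.04%. The psbA share was 4.30% to 11.1% in h3.3kd, against 1.35% to 3.05% in Col, with no overlap.

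With H3.3 reduced, chloroplast genes were called higher and none was called lower: 27 of the 74 tested members passed in h3.3kd against Col (limma, Benjamini-Hochberg adjusted p under 0.05 over 19937 genes), where 5.41% of all genes passed as higher and 11.9% as lower. The median member changed by 0.93 on the log2(TPM + 1) scale, against -0.12 for all genes, and 43 members had an unadjusted p under 0.05. Without the second h3.3kd library the median was 0.55, against -0.19 for all genes, and 27 members had such a p. Without the first Col library as well, they were 0.43 and 19, and with array weights, which let noisier libraries count less, 0.36 and 29. Those weights were 0.405, 0.161 and 4.04 in h3.3kd, so the weighted h3.3kd level rested mostly on the third library. Of the members, 23 (31.1%) had all 3 h3.3kd libraries above all 3 Col libraries, against 8.93% of all genes, and none had all 3 below. The 27 comprised 9 of 15 photosystem II members, 6 of 19 ribosomal proteins, 3 of 6 cytochrome b6f members, 3 of 9 NDH members, 2 of 5 photosystem I members, 2 of 6 others, 1 of 6 ATP synthase members, the large subunit of Rubisco, and none of the 4 polymerase subunits. The count fell to 11 without the second h3.3kd library, to 10 without the first Col library, to 15 without the third Col library and to 7 without both of the first-named, and it was 4 when only these 2 genotypes entered the fit. In 9 members (psbA, psbC, psaA, psaB, rbcL, petA, petB, rps4 and rps14) the call held whichever single library was left out of the fit of all 4 genotypes. That fit pools the spread of the 4 genotypes into each SE and adjusted p. In the chloroplast total h3.3kd spread most, with an SD of 1762 TPM against 362 to 388 TPM in the others. The SEs and adjusted p-values given for h3.3kd against Col may therefore understate the spread between h3.3kd libraries.

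**Figure D2:**
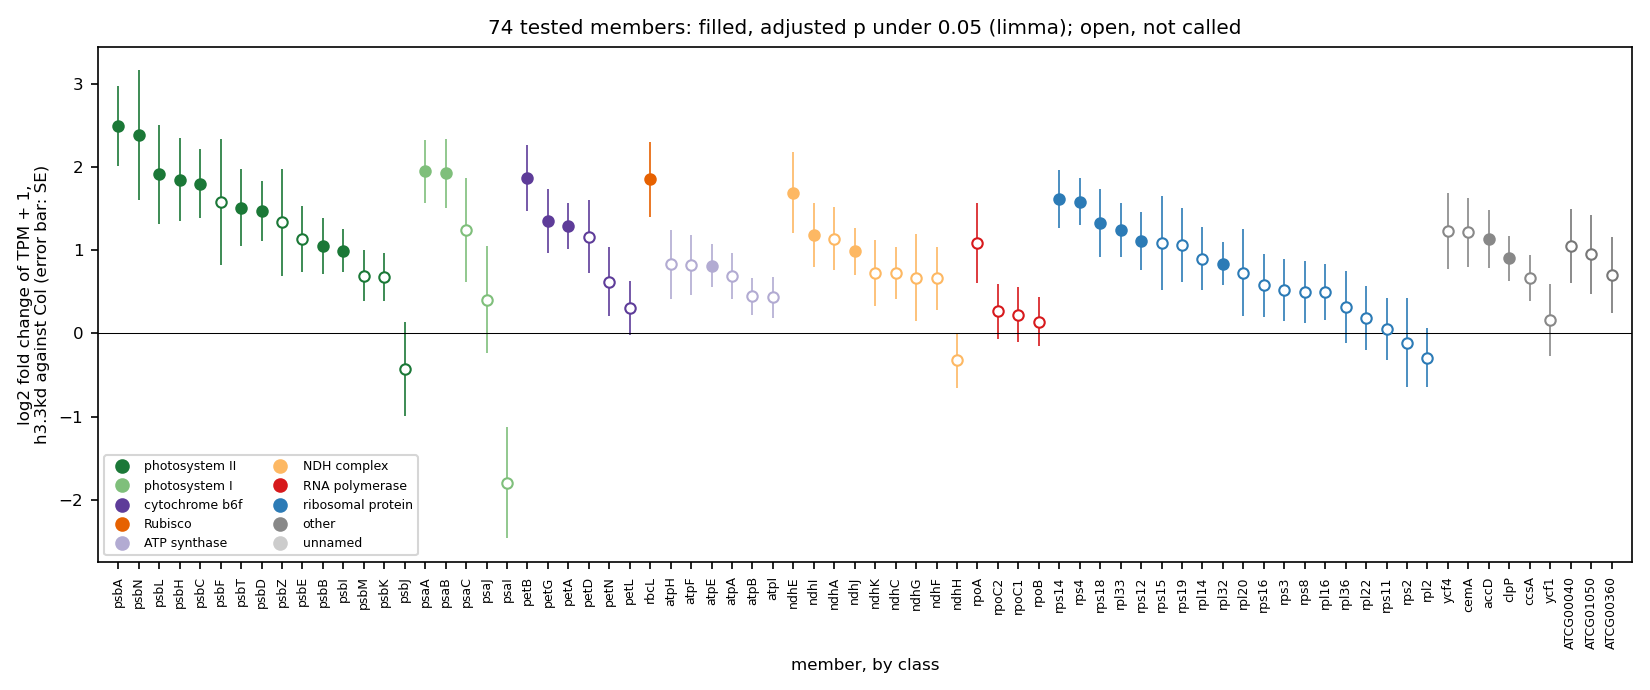
Log2 fold change of TPM + 1 in h3.3kd against Col with its SE (vertical axis) for the 74 tested members, ordered by class and size (horizontal axis), filled where the adjusted p was under 0.05. The filled points are all above 0 and run up to 2.49 in psbA, while 3 of the 4 polymerase subunits lie between 0.14 and 0.26.

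Among photosystem II genes, psbA stood at 384, 426 and 105 TPM in h3.3kd, against 23.1, 73.6 and 53.6 TPM in Col. Every h3.3kd library was above every Col library, and the first and second stood far above the third. Its log2 fold change was 2.49 ± 0.48 (SE; limma adjusted p = 0.00343), with 3993, 3704 and 1036 reads in h3.3kd and 227, 634 and 530 in Col behind it. The gene psbC, which encodes the inner antenna protein CP43, reached 27.9, 35.7 and 10.4 TPM in h3.3kd, against 4.47, 8.41 and 4.53 TPM in Col. It changed by 1.80 ± 0.41 (limma adjusted p = 0.00877), and psbD, the gene of the reaction-centre protein D2 whose end overlaps the start of psbC, changed by 1.47 ± 0.36 (limma adjusted p = 0.0134). Reads in that overlap cannot be assigned to either gene.

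The other photosystem II members called were psbI (0.99), psbH (1.85), psbT (1.51), psbL (1.91), psbB (1.05, the CP47 antenna protein) and psbN (2.38), in log2 fold change. Several rest on few reads or on libraries that overlap: psbT, psbL and psbB overlapped between the genotypes, and psbN had 74 reads in all 12 libraries. In addition, psbN lies on the opposite strand between psbT and psbH, and the library kit does not mark strand, so its reads cannot be told apart from transcripts running through that gap. Among the members not called was psbJ, a small subunit of photosystem II, which stood at 34.0, 2.98 and 26.2 TPM in h3.3kd and 19.3, 25.1 and 16.6 TPM in Col.

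In photosystem I, both large reaction-centre subunits rose together. The gene psaA reached 17.6, 35.4 and 9.83 TPM in h3.3kd, against 2.25, 5.58 and 5.01 TPM in Col, and changed by 1.95 ± 0.38 (limma adjusted p = 0.00375). Its neighbour psaB reached 16.1, 28.8 and 6.73 TPM in h3.3kd, against 1.96, 5.37 and 2.83 TPM in Col, and changed by 1.92 ± 0.41 (limma adjusted p = 0.00634). No library of one genotype fell among those of the other for either gene. The small subunits were not called: psaI, with 67 reads over all libraries, was listed at 0 in the second and the third h3.3kd libraries and at 7.17 TPM in the first, against 8.51, 6.49 and 3.77 TPM in Col.

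Rubisco's large subunit gene rbcL reached 87.2, 110 and 25.7 TPM in h3.3kd, against 15.2, 25.1 and 12.2 TPM in Col. The third h3.3kd library was barely above the second Col library, and the others stood apart from all Col libraries. The log2 fold change was 1.85 ± 0.45 (limma adjusted p = 0.0128, and 0.047 at most with 1 library left out). In the cytochrome b6f complex, which passes electrons between the photosystems, petB (cytochrome b6) reached 13.5, 30.9 and 9.55 TPM in h3.3kd, against 1.78, 6.63 and 3.70 TPM in Col, a change of 1.87 ± 0.40 (limma adjusted p = 0.00587). The cytochrome f gene petA changed by 1.29 ± 0.28 (limma adjusted p = 0.00634), with 20.5, 28.0 and 16.6 TPM in h3.3kd and 5.26, 12.0 and 8.26 TPM in Col. The small subunit gene petG changed by 1.35, though its lowest h3.3kd library, at 20.6 TPM, lay below the highest Col library, at 22.7 TPM.

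**Figure D3:**
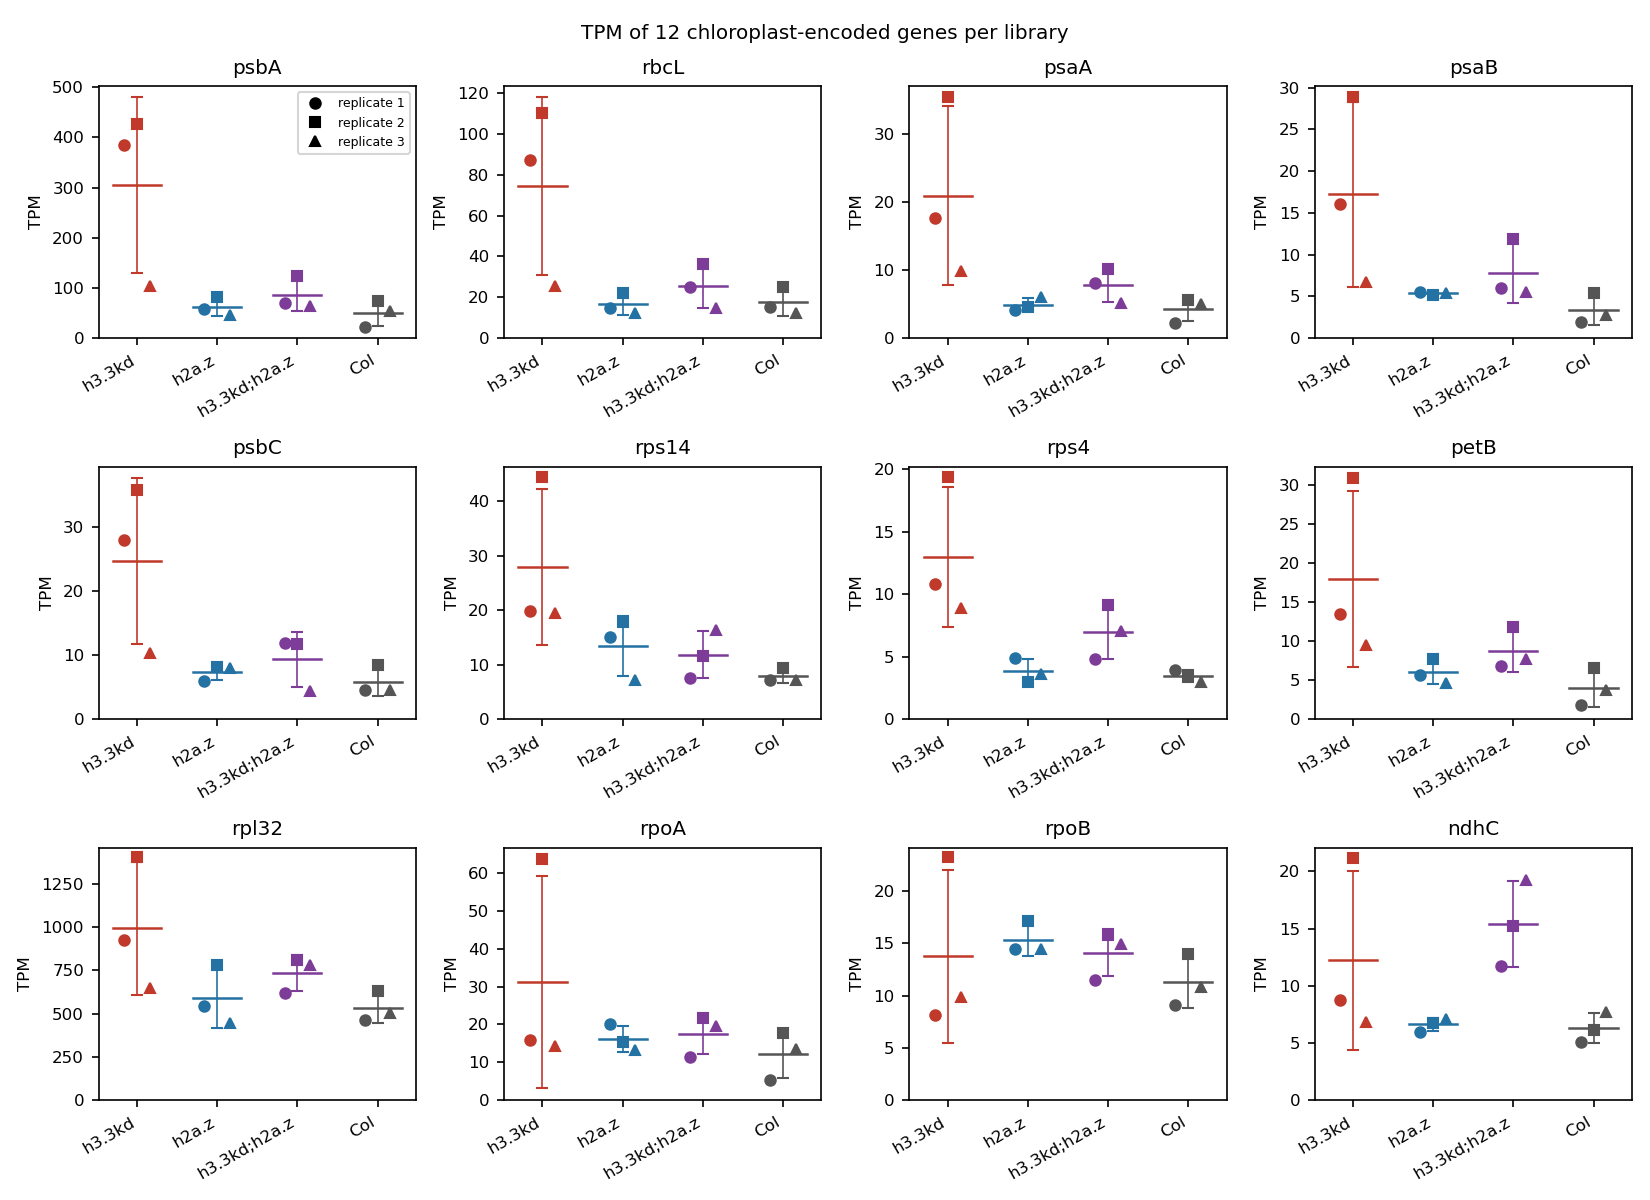
TPM per library of 12 members by genotype (vertical axis from 0, scaled per panel), with a symbol per library, a line at the mean and an SD bar. For psbA and rbcL the first and second h3.3kd libraries stand above all others, for rpoA and rpoB only the second, at 63.6 and 23.2 TPM, does, and for ndhC the h3.3kd;h2a.z libraries lie at 11.7 to 19.2 TPM.

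Outside the photosynthetic complexes, 6 ribosomal protein genes were called. The small-subunit gene rps4 had the smallest adjusted p of all members: 10.8, 19.4 and 8.87 TPM in h3.3kd, against 3.92, 3.46 and 3.01 TPM in Col, a change of 1.58 ± 0.28 (limma adjusted p = 0.00186). The gene rps14 reached 19.9, 44.4 and 19.5 TPM in h3.3kd, against 7.12, 9.36 and 7.09 TPM in Col, a change of 1.61 ± 0.35 (limma adjusted p = 0.0069). It lies just downstream of psaB on the same strand. The others were rpl33 (1.24), rps18 (1.32), rps12 (1.11, its first exon) and rpl32 (0.84), the last with a limma adjusted p of 0.0343. The ndhE (1.69), ndhI (1.18) and ndhJ (0.98) subunits of the NDH complex, which cycles electrons around photosystem I, were also called, as were atpE (0.81), clpP (0.90), a subunit of the chloroplast protease, and accD (1.13), a subunit of the carboxylase for fatty acid synthesis. Few reads stand behind ndhE (7 to 32 in h3.3kd and 2 to 5 in Col) and ndhI (10 to 35 and 2 to 7). The replicate number was also used as a block in a fit of these 2 genotypes. Their same-numbered libraries deviated together in the first and second pairs, less clearly in the third. In that fit accD (adjusted p = 0.0615), psbL (0.0782), clpP (0.053), psbB (0.0851) and ndhI (0.0568) lost their calls, by limma.

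The polymerase genes gave no call. The gene rpoB stood at 8.15, 23.2 and 9.85 TPM in h3.3kd, against 9.11, 14.0 and 10.8 TPM in Col (log2 fold change 0.14 ± 0.29, limma adjusted p = 0.786). The first h3.3kd library was below all Col libraries and only the second was above them. The same held for rpoC1, at 3.28, 12.2 and 4.86 TPM in h3.3kd against 3.73, 6.18 and 5.12 TPM in Col, where the first library was the lowest of the 6. In rpoC2 the levels were 1.68, 6.36 and 1.59 TPM in h3.3kd, against 1.72, 2.30 and 2.29 TPM in Col, and in rpoA 15.8, 63.6 and 14.3 TPM in h3.3kd, against 5.34, 17.8 and 13.5 TPM in Col. Without the second h3.3kd library the fold changes of rpoB, rpoC1 and rpoC2 were below 0, at -0.29, -0.24 and -0.23. The difference between polymerase and photosynthesis genes was not tested as such.

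The h3.3kd libraries were high in different ways. In the first, 13 of 15 photosystem II members and rbcL, but none of the 4 polymerase members and 10 of 19 ribosomal proteins, were above all Col libraries, with class medians of 2.55 times the Col mean for photosystem II, 1.57 times for ribosomal proteins and 0.760 times for the polymerase. In the second, all 4 polymerase members, 14 of 15 photosystem II members and 14 of 19 ribosomal proteins were above all Col libraries, with medians of 2.73, 3.59 and 2.81 times. In the third, the medians were 0.920, 1.59 and 1.22 times. Counted over all tested members, 47, 65 and 31 of 74 (63.5%, 87.8% and 41.9%) were above all Col libraries in the first, second and the third h3.3kd library, against 15.0%, 38.1% and 23.3% of all genes. The ratios to the Col mean in the first and the second libraries had a Spearman's rho of 0.60 over 71 named members, and in the first and the third of 0.52, as descriptions, since all use the same Col mean.

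**Figure D4:**
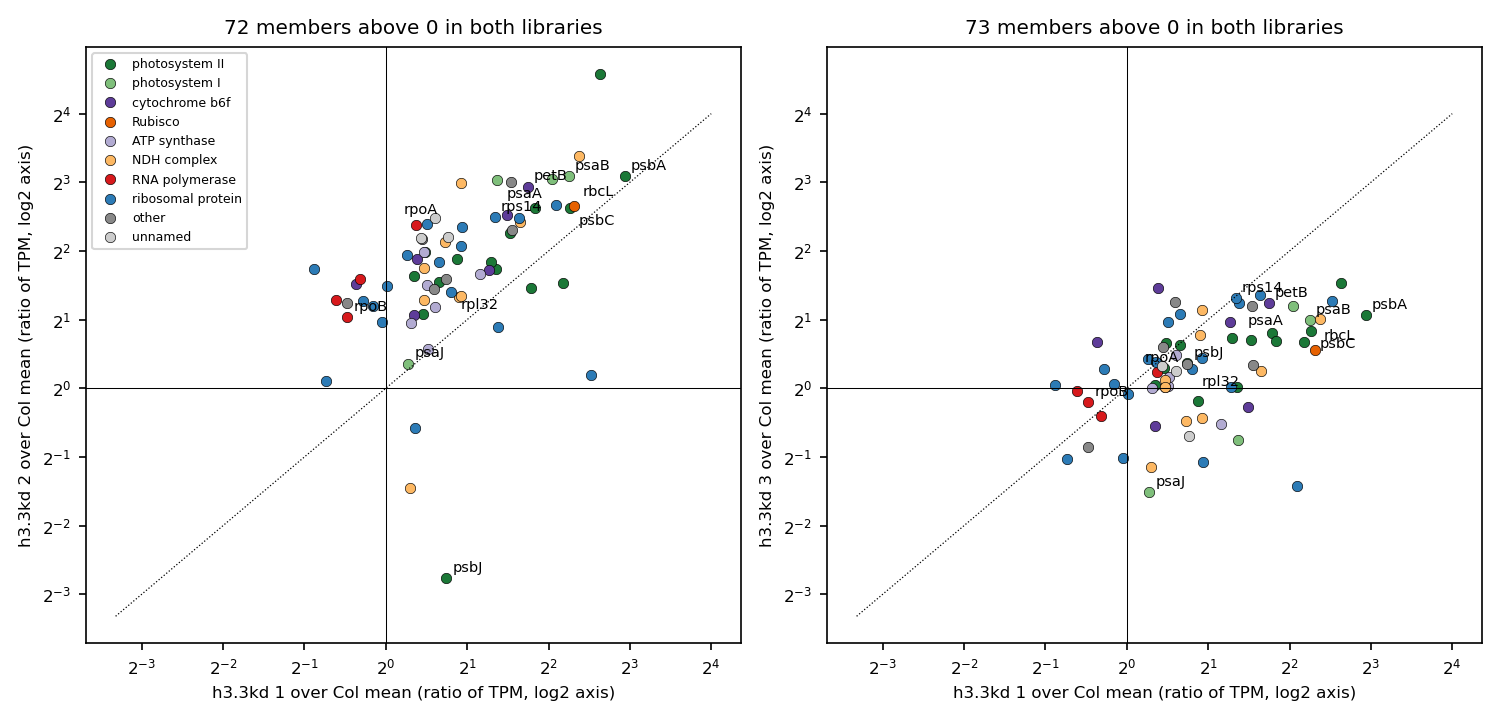
TPM of each tested member relative to the Col mean in the first h3.3kd library (horizontal axis) and in the second (left) or the third (right; vertical axes, all log2), coloured by class. In the left panel most points lie above the dotted line of equal ratios, rpoB among them at 0.721 and 2.05, and psbA lies near it at 7.66 and 8.51.

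Against the mean of the other 2 h3.3kd libraries, the second was 1.99 times as high in the chloroplast total. The median member was 2.36 times as high, against 1.15 times for all genes, and 65 of 74 members were above both other libraries, against 53.5% of all genes. Of the members averaging at least 5 TPM, the largest ratios were in psbN (5.25), psaC (5.17), rpl20 (4.29), rpl36 (4.24) and rpoA (4.22). Here rpl20 and rpl36 encode proteins of the large ribosomal subunit, and psaC the iron-sulphur subunit of photosystem I. The smallest were in psaI, listed at 0, psbJ (0.0989), rpl22 (0.517), psbL (1.07) and atpI (1.17). The members low in this library were low outright: psbJ had 3 reads there, against 41 and 30 in the other h3.3kd libraries, and rps2, listed at 0, had 38 and 15 reads in those. This library also had the fewest genes at 1 to 5 reads, and the part of that in these low values was not tested.

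In h3.3kd;h2a.z against Col, 4 of the 74 tested members were called higher and none lower (limma). As a share, the higher calls were below the 6.17% of all genes that passed as higher, and 12.6% of all genes passed as lower. The median member changed by 0.51, against -0.10 for all genes, and 18 members (24.3%) had all 3 libraries above all Col libraries, against 15.5% of all genes. The 4 were ndhC, ndhE and ndhI of the NDH complex and rpl33 of the ribosome. The gene ndhC reached 11.7, 15.2 and 19.2 TPM in h3.3kd;h2a.z, against 5.99, 6.79 and 7.12 TPM in h2a.z and 5.05, 6.12 and 7.70 TPM in Col. All 3 stood above all 6 others, and the change was 1.16 ± 0.31 against Col (limma adjusted p = 0.0189), on 35, 46 and 59 reads in h3.3kd;h2a.z and 17 to 26 in Col. For ndhE the change was 1.71 ± 0.48 (limma adjusted p = 0.0234), for rpl33 1.09 ± 0.32 (0.0302) and for ndhI 1.25 ± 0.38 (0.035). Few reads stand behind ndhE, with 10, 22 and 17 in h3.3kd;h2a.z and 5, 3 and 2 in Col. The same is true of ndhI, with 19, 15 and 14 against 5, 7 and 2. No call was left without the second or the third h3.3kd;h2a.z library or by voom on recovered reads, and 1 was left without the first or the third Col library. There were 11 without the second Col library, 14 without the second h3.3kd library, where h3.3kd against Col had 11, and 8 without the third.

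In h3.3kd;h2a.z, psbA stood at 70.6, 123 and 64.2 TPM (0.86 ± 0.48 against Col, limma adjusted p = 0.245), and rbcL at 25.0, 36.5 and 14.8 TPM (0.49 ± 0.45, limma adjusted p = 0.497). Set directly against h3.3kd, no member was called in either direction (limma; 10 at an unadjusted p under 0.05, and 0 adjusted by voom; leaving out 1 library gave up to 3 higher and 5 lower), where 2.43% of all genes passed as higher and 1.83% as lower. The median member was at -0.37, with 16 of 74 above 0, against 0.01 for all genes. Without the second h3.3kd library that median was -0.00034, with 37 of 74 members above 0, against 0.06 for all genes. With all libraries, 7 members (9.46%) had all libraries below all h3.3kd libraries, against 10.1% of all genes. The psbA difference was -1.64 ± 0.48 (limma adjusted p = 0.079). The h3.3kd effect with and without h2a.z, as an interaction, passed for no member (limma; median -0.54, or -0.22 without the second h3.3kd library; 13 at an unadjusted p under 0.05, 0 adjusted by voom), where 0.637% of all genes passed as higher and 1.85% as lower. The smallest adjusted p was that of rps14, with an interaction of -1.74 ± 0.50 on the log2 scale (limma adjusted p = 0.0915), followed by psaI at 3.08 (0.12), psbA at -2.04 (0.161) and psbC at -1.59 (0.21).

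In h2a.z against Col, no member was called higher or lower (limma; 2 at an unadjusted p under 0.05, 0 adjusted by voom), where 10.5% of all genes passed as higher and 4.56% as lower. The median member was at 0.21, against 0.05 for all genes, and 4 members had all libraries above those of Col and 1 all below, against 21.9% and 12.5% of all genes. The levels of psbA were 58.1, 81.3 and 45.7 TPM in h2a.z (0.40 ± 0.48 against Col), and those of rbcL 15.0, 22.3 and 12.4 TPM (-0.05 ± 0.45). Set against h2a.z, h3.3kd;h2a.z had 1 of the 74 tested members called higher, ndhC (1.08 ± 0.31, limma adjusted p = 0.0211), and none lower. As a share, that was below the 5.34% of all genes that passed as higher, and 19.3% of all genes passed as lower. In this comparison 15 members (20.3%) had all libraries above all h2a.z libraries, against 15.5% of all genes, and 0 had all below, against 36.6% of all genes. The ndhC call ended without the first or the second h2a.z library and without the second or the third h3.3kd;h2a.z library, and the count was 6 without the second or the third h3.3kd library. The comparisons with Col share its 3 libraries, so their values are set side by side and not counted as independent.

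Some runs of neighbouring genes, chosen after their values were seen, are set side by side. The run of psaA, psaB and rps14 on the minus strand changed by 1.95, 1.92 and 1.61 in h3.3kd against Col, and psbD and psbC on the plus strand by 1.47 and 1.80. The plus-strand genes psbB, psbT, psbH and petB changed by 1.05, 1.51, 1.85 and 1.87. The run of rpoB, rpoC1 and rpoC2, also on the minus strand, changed by 0.14, 0.23 and 0.26. Neighbours also differed: on the minus strand psbJ was at -0.43 (limma adjusted p = 0.648) and psbL, beside it, changed by 1.91. Likewise, psaJ at 221 TPM in the first Col library lies just before rpl33, which stood at 9.12 TPM there, the lowest of the 12 libraries for rpl33. Fold change had little relation to base composition or length: over the 71 named members Spearman's rho was 0.17 with GC content and -0.09 with length, as descriptions.

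Most of the called nuclear genes that serve the chloroplast were lower in h3.3kd against Col. Over all genes in that comparison, 5.41% passed as higher and 11.9% as lower. Of 28 nuclear photosystem, cytochrome and ATP synthase subunits, all tested, 8 were called lower and none higher in h3.3kd against Col, with a median of -0.28. PSAH2 (-0.98), a photosystem I subunit, reached 370, 261 and 286 TPM in h3.3kd, against 785, 560 and 487 TPM in Col, and PSAD-1 (-0.60), PSAL (-0.59) and PSBQA (-0.65) were lower as well. Of the 4 Rubisco small-subunit genes, the partners of rbcL, 3 were called lower, among them RBCS1B at 533, 442 and 583 TPM in h3.3kd, against 967, 805 and 842 TPM in Col (-0.75 ± 0.13, limma adjusted p = 0.00179).

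Of 21 nuclear partners of the chloroplast polymerases, 1 was called higher and 1 lower in h3.3kd against Col. The shares of all genes were 5.41% higher and 11.9% lower. The sigma factor gene SIGE (AT5G24120, also SIG5), whose product directs the bacterial-type polymerase and is known for acting on the psbD promoter, reached 5.79, 7.54 and 7.07 TPM in h3.3kd, against 1.38, 1.58 and 1.65 TPM in Col. All 3 libraries stood well above Col, the third included, with a change of 1.61 ± 0.21 (limma adjusted p = 0.000186). In h3.3kd;h2a.z it stood at 3.55, 3.17 and 4.22 TPM, a change of 0.87 ± 0.21 against Col (limma adjusted p = 0.00945). The gene SCA3 (AT2G24120), for the phage-type chloroplast polymerase, reached 9.17, 22.7 and 13.7 TPM in h3.3kd, against 26.1, 25.9 and 24.2 TPM in Col (-0.79 ± 0.24, limma adjusted p = 0.0331). Among the h3.3kd libraries SCA3 was lowest in the first, where rpoB was lowest, and highest in the second, where rpoB was highest. The median of all genes tested had that order too. Its log2 difference to the Col mean was -0.25 in the first, -0.12 in the third and 0.02 in the second library. In the second library SCA3 lay below every Col library and rpoB above every one. This is an order of 3 libraries, shared with the median gene, and was not tested. Of 17 genes for chloroplast RNA processing and decay, 16 were tested, none was called higher and 1 lower, CRB (-0.48), an RNA-binding protein.

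Transcripts of the other organelle genome were also higher. The 70 mitochondrion-encoded genes summed to 410, 323 and 177 TPM in h3.3kd, 101.2, 169 and 135 TPM in h2a.z and 204, 234 and 240 TPM in h3.3kd;h2a.z, against 155, 167 and 94.6 TPM in Col. The h3.3kd and h3.3kd;h2a.z libraries lay above all Col libraries. Of 31 tested, 9 were called higher and none lower in h3.3kd against Col, and 7 higher and none lower in h3.3kd;h2a.z against Col. Over all genes, 5.41% passed as higher and 11.9% as lower in h3.3kd, and 6.17% and 12.6% in h3.3kd;h2a.z. Unlike the chloroplast total, the mitochondrial one was highest in the first h3.3kd library.

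The summed root markers were lower in h3.3kd and h3.3kd;h2a.z than in Col. The summed green-tissue markers overlapped Col in h3.3kd and were higher than Col in h3.3kd;h2a.z. The 14 root markers summed to 99.7 to 192 TPM in h3.3kd, 261 to 274 TPM in h2a.z and 131 to 132 TPM in h3.3kd;h2a.z, against 250 to 311 TPM in Col. Of 13 tested, 6 were called lower in h3.3kd and 7 in h3.3kd;h2a.z against Col, and none higher. Over all genes, 11.9% passed as lower and 5.41% as higher in h3.3kd, and 12.6% and 6.17% in h3.3kd;h2a.z. PLT1, PLT2 and WOX5, regulators of the root stem cells, were each listed at 0 in 1 h3.3kd library. They were near the floor in Col too, at 0.788 to 2.36 TPM. Other root markers did not fall: SCR stood at 33.2, 67.7 and 38.9 TPM in h3.3kd, against 31.6, 37.5 and 44.9 TPM in Col. SHR stood at 19.2, 20.6 and 23.1 TPM in h3.3kd, against 17.6, 22.5 and 24.2 TPM in Col. The 8 green-tissue markers summed to 66361, 26232 and 40821 TPM in h3.3kd, 22936 to 30131 TPM in h2a.z and 40961 to 46070 TPM in h3.3kd;h2a.z, against 29005 to 33005 TPM in Col, and of their members 2 were called higher in h3.3kd against Col and 2 lower. The higher ones were LHB1B2 (1.13, limma adjusted p = 0.0129) and CAB2 (0.87, limma adjusted p = 0.0131), both light-harvesting antenna genes, and the lower ones LHCB2.1 (-0.79), another antenna gene, and CA1 (-0.54), a carbonic anhydrase. In the second h3.3kd library, where the chloroplast total was highest, the green-tissue sum was below every Col library. The part of tissue make-up in the chloroplast values was not tested.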

How the data were processed

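Per the submitters' processing notes, reads were handled with fastp 0.20.1, HISAT2 2.1.10, HTSeq 0.11.2 and DESeq2 1.26.0 on TAIR10; no source used here gives their options. The authors deposited 1 table of TPM per gene for 12 libraries. Multiplied by each gene's RefSeq span (introns included), 99.97% to 99.98% of values above 0 were whole multiples of 1 read (tolerance 0.02), which gave read numbers and the lengths by which members were named; identifiers were not matched to names in any annotation, so a name means a match of length and place. Most members in the inverted repeat, where reads map to several places, had near 0 reads. An exception was rpl2, whose length matched 2 chloroplast genes, with 628 reads over the 12 libraries.

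The test was limma 3.58.1 (R 4.3.3) with an intensity trend on log2(TPM + 1), all 12 libraries in 1 model, genes of at least 1 TPM in at least 3 libraries, Benjamini-Hochberg over 19937 genes, adjusted p under 0.05. Fold changes on this scale understate those of low genes. The fit was tested on simulated data. Totals were summed in TPM and not tested. Alternatives were other pseudocounts (0.1 and 0.5), no or a higher filter (5 TPM), other scalings, a replicate block, array weights, single genotypes, leaving out libraries, and, chosen after seeing the data, voom on recovered reads, a block with Col and h3.3kd alone and the share of reads. Same-numbered Col and h3.3kd libraries had correlated deviations (0.31, 0.22 and 0.11), but the third Col library correlated as much with the second h3.3kd library (0.12). Same-numbered libraries of other genotypes did not deviate together in every pair. The labels give the numbers but no shared batch. Members named are those called in any comparison, the 10 highest, psbA, rbcL and the rpo genes, the extremes of the second h3.3kd library, and called genes of the nuclear lists. The members and lists were chosen with earlier results of these data known.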

Additional observations from a re-analysis of the deposited data

Results flagged for a closer look

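In rps16 and cemA every h3.3kd library lay above the Col mean while every h3.3kd;h2a.z library lay below the h2a.z mean. For rps16, a ribosomal protein gene with 98 reads in all, the levels were 1.39, 0.996 and 1.26 TPM in h3.3kd and 0.551, 0.109 and 0.214 TPM in h3.3kd;h2a.z, against 0.933, 2.84 and 0.0936 TPM in h2a.z and 0.0976, 1.12 and 0.389 TPM in Col. Its interaction was -1.23 on the log2 scale (limma adjusted p = 0.308). For cemA the levels were 37.6, 125 and 41.9 TPM in h3.3kd and 29.3, 32.4 and 33.9 TPM in h3.3kd;h2a.z, against 31.0, 44.7 and 37.2 TPM in h2a.z and 13.3, 44.9 and 24.6 TPM in Col. Its interaction was -1.43 (limma adjusted p = 0.266). Neither interaction passed, and both genes' h3.3kd and Col libraries overlapped.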

How the results depend on the processing

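The count of members called higher in h3.3kd against Col (27) was 7 without the first Col and second h3.3kd libraries, 4 with only the genotypes compared, 18 unfiltered or by voom, 31 after median-ratio scaling and 30 with the replicate block, and ranged from 10 to 38 with 1 library left out; members called lower (0) were 2 with array weights and 1 with a pseudocount of 0.1, and 0 to 1 with 1 library left out. For h2a.z against Col the higher count (0) was 2 without both libraries, 2 with array weights, 1 with only the genotypes compared, 1 with the replicate block and 0 to 2 leaving 1 out, and the lower count (0) was 1 without both libraries and 2 with array weights. For h3.3kd;h2a.z against Col the higher count (4) was 7 without both libraries, 21 with array weights, 7 after median-ratio scaling, 8 with only the genotypes compared, 12 with the replicate block, 0 by voom and 0 to 14 leaving 1 out. Against h2a.z the higher count (1) was 9, 13, 3, 15, 6 and 0 in the same order, and 0 to 6 leaving 1 out, and the lower count (0) was 1 with array weights and 0 to 1 leaving 1 out. Against h3.3kd the higher count (0) was 5 without both libraries, 10 with array weights and 0 to 3 leaving 1 out, and the lower count (0) was 3 with array weights, 4 with the replicate block and 0 to 5 leaving 1 out. The interaction counts (0 higher, 0 lower) were 6 and 2 with array weights and 0 to 1 and 0 to 2 leaving 1 out. With array weights the third h3.3kd library weighed 4.04, against 0.405 in the first and 0.161 in the second, so those counts rest mostly on it for h3.3kd. The cause of these shifts was not tested.

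Of single values, 11 changed sign in h3.3kd against Col, none of them called: with both libraries out rpoB -0.42, rpoC1 -0.41, rpoC2 -0.32 and rpoA -0.040; with array weights rpoB -0.16, rpoC1 -0.079 and rpoC2 -0.26; and with 1 library left out, where rpoB ranged from -0.29 to 0.42, rpoC1 from -0.24 to 0.57 and rpoC2 from -0.23 to 0.52, lowest without the second h3.3kd library, and psaJ from -0.19 without the third Col library to 1.37 without the first. The log2 ratio of the chloroplast total in h3.3kd against Col, 0.92 with all libraries, was lower without the second h3.3kd library. It was lower again without the first Col library as well, as given above. Leaving out ribosomal and transfer RNA was not run, since no member is one. Median-ratio scaling gave 1734 higher and 1881 lower genes in h3.3kd against Col, 1819 and 2153 in h3.3kd;h2a.z against Col and 1885 and 3084 in h3.3kd;h2a.z against h2a.z, where TPM as deposited gave 1079 and 2371, 1230 and 2508, and 1065 and 3851; the median of all genes in the last moved to -0.02 from -0.15. Members with under about 100 reads in all, such as psaI, psbN and rps16, are limited by counting error.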
